A study of Mus musculus with 5 samples.

Results

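Fibroblast growth factors (FGFs) are secreted signals that bind 4 receptor tyrosine kinases, FGFR1 to FGFR4, together with heparan sulfate on the cell surface. The activated receptor phosphorylates the docking protein FRS2, which couples it to the Ras-ERK cascade, and ERK activity in turn induces inhibitors of the same cascade, the Sprouty (Spry) and Spred proteins. In liver, FGFR4 with its co-receptor beta-Klotho is known for receiving the intestinal signal that restrains bile acid synthesis in hepatocytes, and the epithelial form of FGFR2 is known for receiving FGFs made by mesenchyme. The 10 genes described here are Fgfr1, Fgfr2, Fgfr3, Fgfr4, Fgfrl1, Fgf1, Frs2, Spry2, Spry4 and Spred1, taken by symbol from the 52029 genes of the deposited 4-library table and from the table of a further library. All 10 were found in both tables, and all 10 passed the low-count filter.

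The libraries are total RNA of hepatobiliary organoids (HOs), epithelial cultures grown from wild-type mouse liver stem/progenitor cells (primary cells), all taken at day 10. Co-cultures of HOs with liver endothelial cells (LiECs) were at passage 8 and gave 3 libraries: M9, M10 and 1 more, the third library. HOs alone were at passage 1 and gave 2 libraries, M11 and M12. Co-culture and passage 8 therefore cannot be told apart in any difference given here. One medium was recorded for all samples, which held heparin, a glycosaminoglycan that FGFs bind, as well as ECGS and EGF, the ligand of another receptor kinase that feeds the Ras-ERK cascade. Whether libraries of a group came from separate cultures, and whether endothelial cells were removed before RNA was taken, is not in the labels, so a p-value here covers only how these libraries spread, a spread that may be technical.

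Total counts were 33881617, 35878241 and 58853737 in co-culture M9, M10 and the third library, against 26466739 and 29195328 in M11 and M12 of organoids alone. The third library was deposited separately, per RefSeq gene instead of Ensembl gene, and mitochondrially encoded genes took 6.04% of its counts, against 2.31% to 2.80% in the other 4 libraries. It enters no test, and its levels were scaled together with those of the other 4 from counts of the genes that both tables share, although the tables were made separately. The label of epithelial liver organoids fits their markers: Krt19 was at 4410, 4267 and 1254 CPM (counts scaled to a library of 1000000 counts) in M9, M10 and the third library and 1688 and 2217 CPM in M11 and M12, with Epcam at 655, 548 and 506.5 CPM, against 633 and 737 CPM. The summed level of 12 cholangiocyte and progenitor markers was 29503, 24319 and 11725 CPM, against 14432 and 19684 CPM. Of these 12, 3 were called higher and none lower by the test given below, beside 0.994% and 1.25% of all genes. The third library was below both libraries alone for 8 of the 12, beside 47.2% of all genes. Of 16 endothelial markers 15 had a count in the shared table, but their summed level was 6.20, 4.35 and 3.65 CPM in M9, M10 and the third library, against 4.14 and 4.26 CPM in M11 and M12. Pecam1 had 2, 2 and 10 counts in the co-cultures and 1 and 2 alone, and Clec4g had 0 in all 5. Cdh5 had 6, 5 and 19 counts in the co-cultures, against 3 and 2 alone. Flt1, the largest part of the sum in M9 and M10, was at 3.47 and 2.04 CPM there. It was at 0.889 CPM in the third library, against 1.02 and 1.24 CPM in M11 and M12. Of 4 endothelial markers tested, 0 had all 3 co-cultures above both libraries alone and 0 had all 3 below both. Macrophage markers summed to 325, 293 and 416 CPM in M9, M10 and the third library, against 679 and 607 CPM in M11 and M12, nearly all of it Cd14 and Csf1r. Cd14 was at 287, 232 and 333 CPM, against 636 and 570 CPM, and Csf1r at 32.0, 54.3 and 81.7 CPM, against 30.5 and 31.3 CPM, while Adgre1 and Clec4f had 0 counts in all 5.

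Of the receptor genes, Fgfr1 was low in all 3 co-culture libraries and Fgfr4 was lower there, whereas Fgfr3 differed most between the co-culture libraries themselves. Fgf1 was higher in all 3. The 10 genes were selected on their pathway and on values of this same contrast, the counts of M9, M10 and the third library against those of M11 and M12, so their differences are a description, with no test. Over all 15899 genes tested, edgeR's quasi-likelihood test at an adjusted p of 0.05 called 2.24%, with 1.25% lower and 0.994% higher. The M9 and M10 values did not overlap those of M11 and M12 for 5 of the 10 (Fgfr1, Fgfr2, Fgfr4, Fgfrl1 and Fgf1), beside 49.4% of all genes tested. The third library was above both libraries alone for 5 members and below both for 5, beside 41.5% and 47.2% of 14319 genes, and highest of all 5 libraries for 4 and lowest for 2, beside 30.2% and 35%. All 3 co-culture libraries were below both libraries alone for 3 members (Fgfr1, Fgfr4 and Fgfrl1) and above both for 2 (Fgfr2 and Fgf1), beside 16.9% and 15.2% of those genes. The CPM given below are scaled over all 5 libraries. Log2 differences are co-culture minus alone from the fit to M9, M10, M11 and M12, with the standard error (SE, n = 2 libraries in each group).

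**Figure D1:**
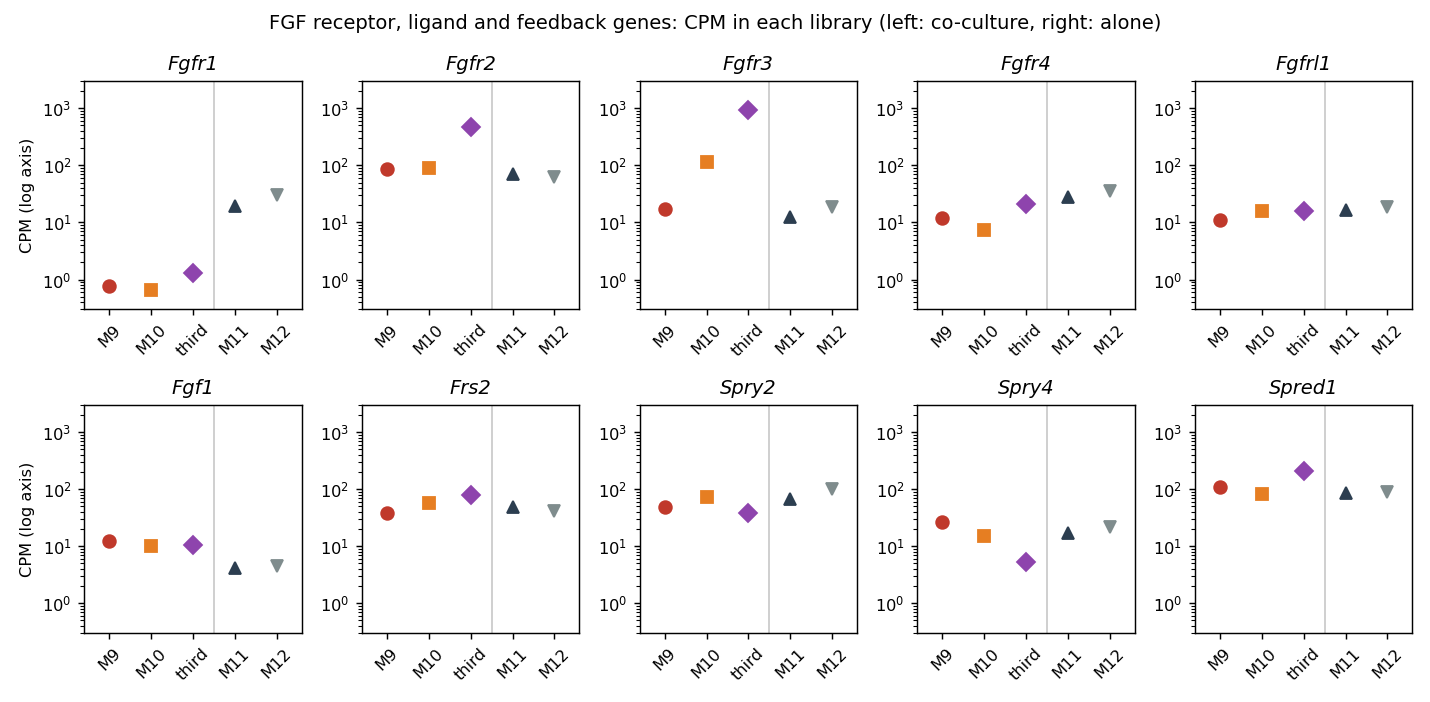
CPM (log axis, the same for all panels) of the 10 genes in each library, with co-culture M9, M10 and the third co-culture library left of the grey line and organoids alone M11 and M12 right of it; each point is 1 library and there are no error bars. Fgfr1 lies near 1 CPM in the 3 co-culture libraries, and Fgfr3 spans 17.2 to 945.5 CPM among them.

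Fgfr1, the receptor that is typically strong in mesenchymal cells, was at 0.767 CPM in co-culture M9, 0.652 CPM in co-culture M10 and 1.32 CPM in the third co-culture library, against 19.1 CPM in M11 and 30.6 CPM in M12 of the organoids alone. These are 25, 22 and 80 counts in the co-cultures and 509 and 864 counts alone. All 3 co-culture libraries were far below both libraries of organoids alone, at 0.0308, 0.0262 and 0.0529 of their mean. The log2 difference was -5.13 with an SE of 0.38. It lay between -5.42 and -4.74 in every alternative run.

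Most tested mesenchymal markers were low in the same libraries as Fgfr1, with exceptions. The summed level of 14 such markers was 30.7, 38.1 and 15.9 CPM in M9, M10 and the third library, against 38.3 and 101.4 CPM in M11 and M12. In M9 and M10 nearly all of it was Reln, which was at 28.2 and 34.8 CPM there, and without Reln the sum was 2.48, 3.29 and 8.02 CPM in the co-cultures, against 28.2 and 87.0 CPM alone. Acta2 had 0, 0 and 10 counts in the co-cultures, against 9 and 86 alone, and Col3a1 had 0, 1 and 13, against 71 and 351. Col1a2 had 0, 21 and 297 counts, against 112 and 582, and at 4.89 CPM in the third library it lay above M11 at 4.21 CPM, where Fgfr1 did not. Of 8 mesenchymal markers tested, 3 were called lower by edgeR (Col3a1, Col6a3 and Rgs5) and none higher, beside 1.25% and 0.994% of all genes. The number was 0 with all 5 libraries and 1 with limma-voom, and the calls did not hold in every fit that left a library out. With DESeq2 it was 5 lower and 1 higher, beside 681 and 633 of 15899 genes. All 3 co-cultures were below both libraries alone for 5 of the 8, beside 16.9% of all genes. M12, with more of these markers than M11, also had more Fgfr1. The part of such cells in the Fgfr1 result was not tested, and in bulk RNA fewer cells of a type and less RNA per cell cannot be told apart.

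The 5 genes with the profile nearest to that of Fgfr1 were Pdpn, Cpq, Sema5a, Slc7a2 and Kcnj16. Likeness was the Euclidean distance between log2 CPM profiles centred on their own means, over 5 libraries and 14319 genes. Pdpn, which encodes podoplanin, was nearest at a distance of 0.50, with 0.215, 0.237 and 0.346 CPM in M9, M10 and the third library and 5.46 and 12.2 CPM in M11 and M12. Slc7a2, a transporter of cationic amino acids, was at 0.368, 0.504 and 0.477 CPM in the co-cultures and at 10.9 and 19.0 CPM alone. The distances of the other 3 ran from 0.64 to 0.76, all with the co-culture libraries low. That direction follows from how the 5 genes were chosen. The prior count of 2 in log2 CPM flattens differences at low counts. Kcnj16 was at 0 CPM in M9, M10 and the third library, against 0.865 and 1.63 CPM in M11 and M12.

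Fgfr2, whose epithelial form binds FGF7 and FGF10, was at 87.2 CPM in co-culture M9, 91.4 CPM in co-culture M10 and 467.7 CPM in the third co-culture library, against 69.7 CPM in M11 and 61.9 CPM in M12 of the organoids alone. All 3 co-culture libraries lay above both libraries of organoids alone, but the third stood apart at 7.11 times their mean. For M9 and M10 the log2 difference was 0.43 with an SE of 0.15. With all 5 libraries in the fit it was 1.73. In GENCODE M21, exons of Fgfr2 share 314 bases with Ctbp2 on the same strand. Ctbp2 had 2938, 2743 and 5120 counts in M9, M10 and the third library, against 1801 and 1897 in M11 and M12, while Fgfr2 had 2842, 3085 and 28419, against 1852 and 1745. These are raw counts, and the total counts of M9 and M10 were also above those of M11 and M12. How reads of the shared bases were assigned is not given, so the Fgfr2 difference in these libraries is uncertain. The part of the shared bases in it was not tested.

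Fgfr3, a receptor also found in epithelia, was at 17.2 CPM in co-culture M9, 114.5 CPM in co-culture M10 and 945.5 CPM in the third co-culture library, against 12.5 CPM in M11 and 18.7 CPM in M12 of the organoids alone. M9 lay within the range of organoids alone, M10 was at 7.35 times their mean and the third library at 60.7 times. The log2 difference of 2.07 had an SE of 0.82, and it was 0.14 without M10 and 2.88 without M9, and 4.55 with all 5 libraries. Between M10 and M9 the log2 difference was 2.73, a gap that 316 of the 15899 genes tested reached or passed. Another gene, G630022F23Rik, shares 998 exon bases with Fgfr3 on the opposite strand in GENCODE M21 and had 3.11 and 44.9 counts in M9 and M10 and 2.05 and 2.07 in M11 and M12. G630022F23Rik had no value in the third library, where Fgfr3 was highest. Fgfr3 itself had 560 and 3864 counts in M9 and M10 and 331 and 527 in M11 and M12. Whether counting used strand is not given in the sources used here, and the part of the shared bases in the Fgfr3 difference was not tested.

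Fgfr4, the receptor of the bile acid axis, was at 11.8 CPM in co-culture M9, 7.32 CPM in co-culture M10 and 20.8 CPM in the third co-culture library, against 27.4 CPM in M11 and 35.7 CPM in M12 of the organoids alone. All 3 co-culture libraries were below both libraries of organoids alone, the third least so at 0.659 of their mean. The log2 difference was -1.73 with an SE of 0.31. Hepatocyte markers went both ways. Their summed level over 12 genes was 569, 542 and 1683 CPM in M9, M10 and the third library, against 898 and 1781 CPM in M11 and M12. The median log2 difference of 7 tested was -3.25, with 3 positive. By edgeR 2 were called lower and none higher, beside 1.25% and 0.994% of all genes. DESeq2 called 4 lower and 1 higher, beside 681 and 633 of 15899 genes, and edgeR with all 5 libraries called 0. All 3 co-cultures were below both libraries alone for 1 of the 7, beside 16.9% of all genes. They were above both for 3 (Apoa1, Ttr and Hnf4a), beside 15.2%. Alb was at 0.153, 0.267 and 63.3 CPM, against 16.6 and 52.2 CPM, so that the third library was above both libraries alone. Their part in the Fgfr4 result was not tested. Fgfrl1, a receptor-like protein that binds FGFs but lacks the kinase domain, was at 10.9, 15.6 and 15.9 CPM in the 3 co-cultures, against 16.4 and 18.7 CPM alone. All 3 were lower, M10 and the third library by little. Its log2 difference was -0.41 with an SE of 0.26, -0.17 without M9 and -0.68 without M10.

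Levels of different genes can be compared only per length, so CPM were divided by the median length of the gene's protein-coding transcripts (GENCODE M21 basic set), giving CPM per kb. Summed over Fgfr1 to Fgfr4 they came to 30.9, 54.1 and 358 CPM per kb in M9, M10 and the third library of the co-cultures, against 34.1 and 38.6 CPM per kb in M11 and M12. Fgfr2 made up 74.6%, 44.7% and 34.6% of that sum in the 3 co-cultures, against 54.2% and 42.5% alone, so that M9 stood above both libraries alone and the third library below both. Fgfr3 was the largest part in M10, at 50.9%, and in the third library, at 63.6%, and held 13.4% in M9, against 8.81% and 11.7% alone. Fgfr1 held 0.564%, 0.274% and 0.0836% in the co-cultures, against 12.8% and 18.1% alone. Fgfr4 held 11.4%, 4.06% and 1.75%, against 24.2% and 27.8%. Fgfr2 thus led in M9 as in both libraries alone, and Fgfr3 led in M10 and the third library. Fgfr1 was the receptor under 1% in all 3 co-cultures. No scaling between libraries enters these shares, and taking the longest transcript in place of the median length moved each by less than 1 SD between the libraries of a group.

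**Figure D2:**
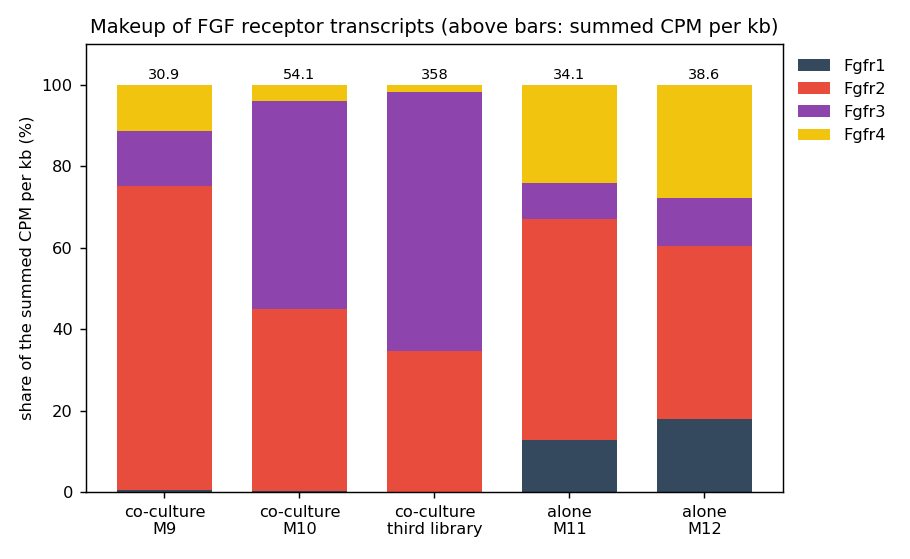
Share of the summed CPM per kb of Fgfr1, Fgfr2, Fgfr3 and Fgfr4 (%, stacked bars) in co-culture M9, M10 and the third co-culture library and in organoids alone M11 and M12; the summed CPM per kb stands above each bar, and each bar is 1 library. Fgfr1 and Fgfr4 hold smaller shares in all 3 co-cultures, Fgfr2 leads in M9, and Fgfr3 leads in M10 and the third library.

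Among all 10 genes the highest mean level in M9 and M10 was that of Spry2 (29.1 ± 8.46 CPM per kb, SD, n = 2), then Spred1 (25.4 ± 4.97), Fgfr2 (23.7 ± 0.790) and Fgfr3 (15.9 ± 16.6), followed by Fgf1, Frs2, Fgfrl1, Spry4, Fgfr4 and last Fgfr1 (0.161 ± 0.0185). Neighbours in this order overlapped in range except Fgf1 with Frs2 and Fgfr4 with Fgfr1. In M11 and M12 the order was Spry2 (40.2 ± 11.9), Spred1 (23.4 ± 0.871), Fgfr2 (17.4 ± 1.46), Fgfr4 (9.50 ± 1.78) and Fgfrl1 (7.56 ± 0.706), then Frs2, Fgfr1, Fgf1, Spry4 and Fgfr3 (3.75 ± 1.06). There the first 5 were separated in range and the rest overlapped with their neighbours, Fgfrl1 with Frs2 included. In the third library Fgfr3 came first at 228 CPM per kb, Fgfr2 next at 124 CPM per kb and Fgfr1 last, below 1 CPM per kb. The place of Fgf1 rests on its length, which was 974 bases at the median and 3981 for the longest transcript. So does the place of Spred1 above Fgfr2, with 3728 bases at the median and 6016 for the longest. For Fgfr2 these were 3773 and 4311 bases. The order and the separations in range given here are those at median lengths.

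Fgfr2, Fgfr3 and Fgfr4 differ in the stretch ahead of their start sites, shown here because among receptors with an entry their levels differed most across the libraries. RefSeq promoter sequences (GRCm38.p6) were matched for 7 of the 10 genes; Fgfr1, Fgf1 and Spry4 were not matched. The 250 bases before the start are written 5′ to 3′ on the gene's strand, with the GC-box letters GGGCGG, or CCGCCC on the other strand, in capitals.
Fgfr2, minus strand, chr7:130266809-130267058: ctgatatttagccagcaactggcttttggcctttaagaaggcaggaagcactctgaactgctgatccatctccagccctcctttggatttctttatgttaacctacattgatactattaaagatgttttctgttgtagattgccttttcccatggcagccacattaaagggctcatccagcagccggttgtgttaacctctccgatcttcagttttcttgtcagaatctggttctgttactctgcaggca
Fgfr3, plus strand, chr5:33721474-33721723: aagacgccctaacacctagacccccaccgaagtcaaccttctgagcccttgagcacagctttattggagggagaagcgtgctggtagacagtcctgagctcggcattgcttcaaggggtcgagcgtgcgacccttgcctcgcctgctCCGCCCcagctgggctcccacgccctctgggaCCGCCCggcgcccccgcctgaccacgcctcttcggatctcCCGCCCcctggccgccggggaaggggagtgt
Fgfr4, plus strand, chr13:55152568-55152817: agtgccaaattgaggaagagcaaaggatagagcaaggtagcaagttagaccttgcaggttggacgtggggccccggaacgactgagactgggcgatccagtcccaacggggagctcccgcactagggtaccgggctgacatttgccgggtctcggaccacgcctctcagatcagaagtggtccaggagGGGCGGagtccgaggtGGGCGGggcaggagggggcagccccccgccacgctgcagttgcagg
The Fgfr2 window held no GC box, 44.0% G and C and 2 CpG dinucleotides. The Fgfr3 window held 3 boxes, 66.8% and 19, and the Fgfr4 window 2 boxes, 64.0% and 15. Over all 32851 promoter windows of this length 32.7% held the box, the median G and C content was 52.4% and the median CpG number was 6. Fgfr3 has a second RefSeq start further downstream, whose window is not printed. Counts per gene do not tell which start was used, and a match of letters is no binding site.

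Fgf1, acidic FGF, which can bind all 4 receptors, was at 12.5 CPM in co-culture M9, 9.98 CPM in co-culture M10 and 10.3 CPM in the third co-culture library, against 4.18 CPM in M11 and 4.43 CPM in M12 of the organoids alone. All 3 co-culture libraries were above both libraries of organoids alone, at 2.90, 2.32 and 2.39 times their mean. The log2 difference was 1.38 with an SE of 0.30. It stayed between 1.21 and 1.53 in every alternative run.

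Of 17 other secreted FGF genes, 13 had a count in the shared table and 5 reached the level for testing. None of the 5 passed in edgeR (2 had an unadjusted p under 0.05, beside 17.5% of all genes), and DESeq2 and limma-voom called 0. Fgf2, basic FGF, was at 1.96, 2.75 and 3.08 CPM in M9, M10 and the third library, against 4.1 and 2.52 CPM in M11 and M12 (adjusted p = 0.648, edgeR). Fgf18 was at 1.81, 1.72 and 1.91 CPM, against 0.451 and 0.816 CPM, which is 1.46 ± 0.51 on the log2 scale (SE) with an adjusted p of 0.225 by edgeR. Fgf7 had 10, 2 and 15 counts in the co-cultures and 20 and 11 alone, and Fgf10 had 0 in all 5 libraries. Fgf9 had 4, 0 and 0 counts in the co-cultures, against 17 and 14 alone. Fgf16 had 0, 0 and 5 counts in the co-cultures, against 7 and 6 alone, so that M9 and M10 together were at least 5.43-fold lower per total count (floor of 3 counts over the group, counting error only). These 3, like Fgf10, are named after their values were seen.

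Heparan sulfate on cell-surface proteoglycans takes part in the binding of many FGFs to their receptors. Of 15 co-receptors, FGF-binding proteins and receptor partners tested, edgeR called 1 lower and none higher, beside 1.25% and 0.994% of all genes. The gene called lower was Sdc2, the core protein syndecan-2. DESeq2 called 5 lower and 1 higher, beside 681 and 633 of 15899 genes. With limma-voom 2 were called lower, beside 183 of 15899 genes, and edgeR with all 5 libraries called 0. Sdc2 was at 1.012, 0.889 and 1.47 CPM in M9, M10 and the third library, against 18.5 and 20.1 CPM in M11 and M12. All 3 co-cultures were far below both libraries alone, and on the log2 scale the change was -4.35 ± 0.30 (SE), at an adjusted p of 0.0074 by edgeR. The call was lost without M12 (adjusted p = 0.0983) and with all 5 libraries (adjusted p = 0.0813), with changes between -4.43 and -4.08 over the alternatives. Sdc1, the abundant epithelial syndecan, was at 721, 695.5 and 341 CPM in the co-cultures and 405 and 427 CPM alone (adjusted p = 0.0615), so that the third library lay below and M9 and M10 above the organoids alone. Gpc4, a glypican, was at 6.35, 2.07 and 3.00 CPM, against 30.0 and 35.96 CPM (adjusted p = 0.0559). Sdc1 and Gpc4 were singled out after their values were seen. The list's median log2 change was -0.21, against 0.00 over all genes tested. Klb, which encodes beta-Klotho, had 12, 13 and 19 counts in the co-cultures and 4 and 20 alone, and was likewise picked after its values were seen.

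Of 16 enzymes that make or edit heparan sulfate, edgeR called 2 lower and none higher, beside 1.25% and 0.994% of all genes. Their median was -0.49. DESeq2 called 3 lower and limma-voom 1 lower, beside 681 and 183 of 15899 genes, and edgeR with all 5 libraries called 0. Hs6st2, a 6-O-sulfotransferase, had 2, 1 and 6 counts in M9, M10 and the third library, against 94 and 66 in M11 and M12 (adjusted p = 0.0216, edgeR). Per total count it was 66.8 times more frequent in M11 and M12 than in M9 and M10, with an exact binomial 95% interval from 22.5 to 328 for counting error. Hs6st1, its more abundant relative, was at 164, 140 and 115 CPM, against 157 and 157 CPM (adjusted p = 0.904; named after its values were seen). Hs3st1, a 3-O-sulfotransferase, was at 81.5, 83.4 and 17.1 CPM, against 152 and 191 CPM, a change of -1.06 ± 0.17 on the log2 scale (SE) at an adjusted p of 0.0435 by edgeR. Without M11 or M12 neither enzyme was called (adjusted p from 0.0981 to 0.341), nor with all 5 libraries (0.154 and 0.533), and limma-voom did not call Hs3st1 (0.0512). Sulf2, which removes 6-O-sulfates outside the cell, was at 57.4, 24.0 and 12.8 CPM, against 184 and 193 CPM (adjusted p = 0.0587; named after its values were seen). All 3 co-culture libraries lay below both libraries alone for 8 of these 16 enzymes and 6 of the 15 co-receptors, beside 16.9% of all genes. As given above, 5 of 8 tested mesenchymal markers were lower in the same libraries, and their part in these changes was not tested.

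**Figure D3:**
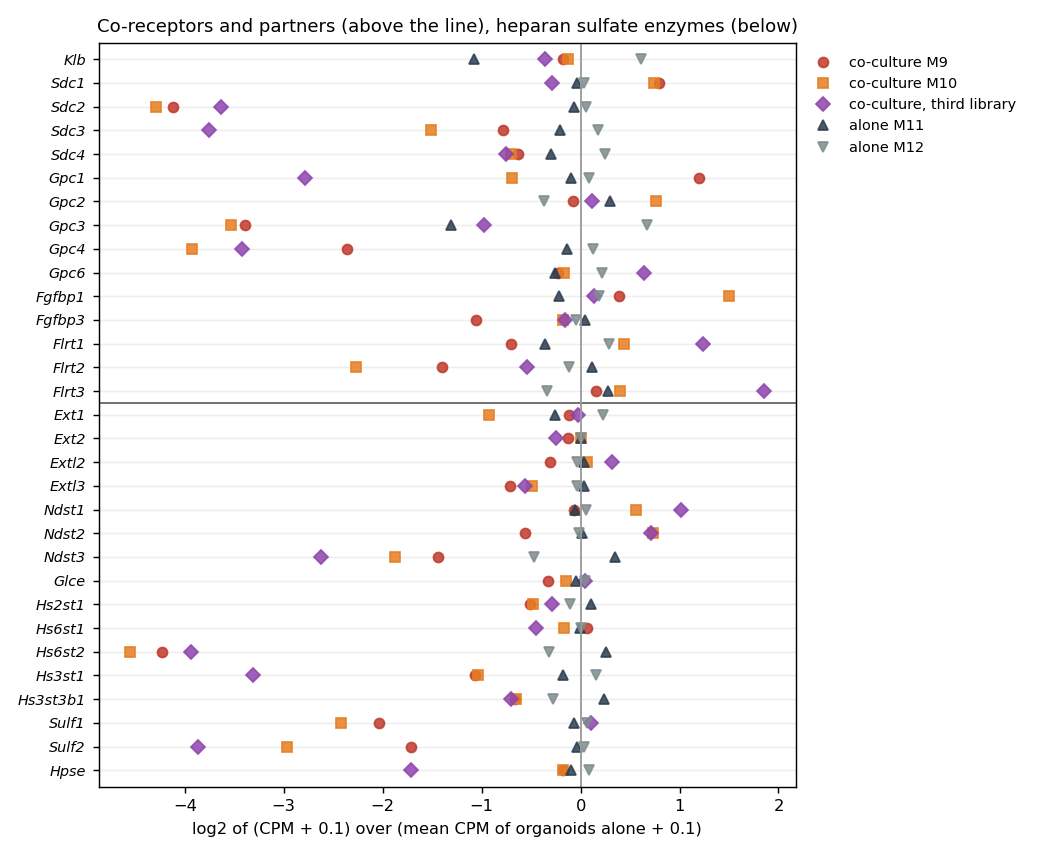
Co-receptors and receptor partners (above the line) and heparan sulfate enzymes (below), 1 row per tested gene and 1 point per library; the horizontal axis is log2 of CPM plus 0.1 over the mean CPM of organoids alone plus 0.1, so 0 is that mean. Sdc2, Gpc4, Hs6st2 and Sulf2 lie left of both libraries alone in all 3 co-cultures.

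Downstream of the receptors, Frs2, the docking protein, was at 38.5 CPM in co-culture M9, 57.0 CPM in co-culture M10 and 78.1 CPM in the third co-culture library, against 47.6 CPM in M11 and 40.7 CPM in M12 of the organoids alone. M9 lay below both libraries alone and the others above, and the log2 difference of 0.11 ± 0.24 (SE) changed sign without M12 (-0.01) or M10 (-0.20). Of 31 adaptors and kinases of the Ras-ERK, PI3K and phospholipase relay, edgeR called 0 (2 had an unadjusted p under 0.05, beside 17.5% of all genes). DESeq2 called 1 of the 31, higher, and limma-voom 0. Their median log2 change was 0.01, with 16 of 31 positive. Mapk3, which encodes ERK1, was at 286, 323 and 267 CPM in M9, M10 and the third library, against 227 and 228 CPM in M11 and M12 (adjusted p = 0.231, edgeR). Akt1 was at 315.5, 272 and 191 CPM, against 290.5 and 321 CPM (adjusted p = 0.881).

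The feedback inhibitors Spry2, Spry4 and Spred1 differed among themselves. Spry2, a Sprouty protein that restrains Ras-ERK signalling below receptor kinases, was at 48.3 CPM in co-culture M9, 73.3 CPM in co-culture M10 and 37.6 CPM in the third co-culture library, against 66.4 CPM in M11 and 101.6 CPM in M12 of the organoids alone. M9 and the third library were below both libraries alone and M10 between them. The log2 difference was -0.47 with an SE of 0.29, and it ranged from -0.80 without M10 to -0.14 without M12.

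Spry4, a second Sprouty, was at 26.7 CPM in co-culture M9, 15.3 CPM in co-culture M10 and 5.32 CPM in the third co-culture library, against 16.8 CPM in M11 and 22.1 CPM in M12 of the organoids alone. M9 was highest and the third library lowest of all 5, at 0.274 of the mean of the organoids alone. The log2 difference of 0.11 ± 0.33 (SE) turned to -0.34 without M9, -0.06 without M11 and -0.30 with all 5 libraries. Spred1, which holds the Ras-inactivating protein neurofibromin at the membrane, was at 108 CPM in co-culture M9, 81.6 CPM in co-culture M10 and 206 CPM in the third co-culture library, against 84.8 and 89.4 CPM in M11 and M12. The third library was highest, at 2.37 times the mean of organoids alone, and the log2 difference for M9 and M10 was 0.11 ± 0.18 (SE; -0.09 without M9).

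Of 13 other feedback inhibitors tested, edgeR, DESeq2 and limma-voom called 0, with a median of -0.19. By edgeR 0 had an unadjusted p under 0.05, beside 17.5% of all genes. Dusp6, the cytoplasmic ERK phosphatase, was at 273, 230 and 133 CPM in M9, M10 and the third library, against 213.5 and 243.5 CPM in M11 and M12 (0.13 ± 0.17 on the log2 scale, SE; adjusted p = 0.757, edgeR). Dusp5, the nuclear ERK phosphatase, was at 134, 85.4 and 7.16 CPM, against 110.5 and 217 CPM (-0.59 ± 0.37; adjusted p = 0.493). In the third library 9 of the 13 lay below both libraries alone, beside 47.2% of all genes, with a median of -0.61 against -0.05 over all genes.

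Of 21 ERK-responsive target genes none was called by edgeR, and 5 had an unadjusted p under 0.05, beside 17.5% of all genes. DESeq2 called 2, both lower, and limma-voom called 0. The median log2 change was -0.59 and 5 of 21 were positive. Ccnd1, cyclin D1, was at 1454, 1823 and 620 CPM in M9, M10 and the third library, against 1612 and 1223 CPM in M11 and M12 (0.20 ± 0.21, SE; adjusted p = 0.696, edgeR). Junb was at 579, 700 and 290 CPM, against 365 and 646 CPM (adjusted p = 0.625). The third co-culture library stood apart in this group: 20 of the 21 genes lay below both libraries alone, beside 47.2% of all genes, and 19 were lowest of all 5 libraries, beside 35% of all genes. Its median difference from the organoids alone was -1.79, and the exception was Etv1, at 8.67 CPM against 2.41 and 3.01 CPM. Fosl1, an AP-1 subunit, was at 41.2, 14.6 and 0.165 CPM in the 3 co-cultures and 25.9 and 67.4 CPM alone. Etv4, an ETS factor induced by FGF signals, was at 20.1, 11.3 and 1.25 CPM, against 21.03 and 26.6 CPM. Etv1, Fosl1 and Etv4 are named after their values were seen. No second library was counted with its annotation, and its mitochondrial share was the largest; the part of these in its low target genes was not tested. Both contrasts rest on the same M11 and M12.

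**Figure D4:**
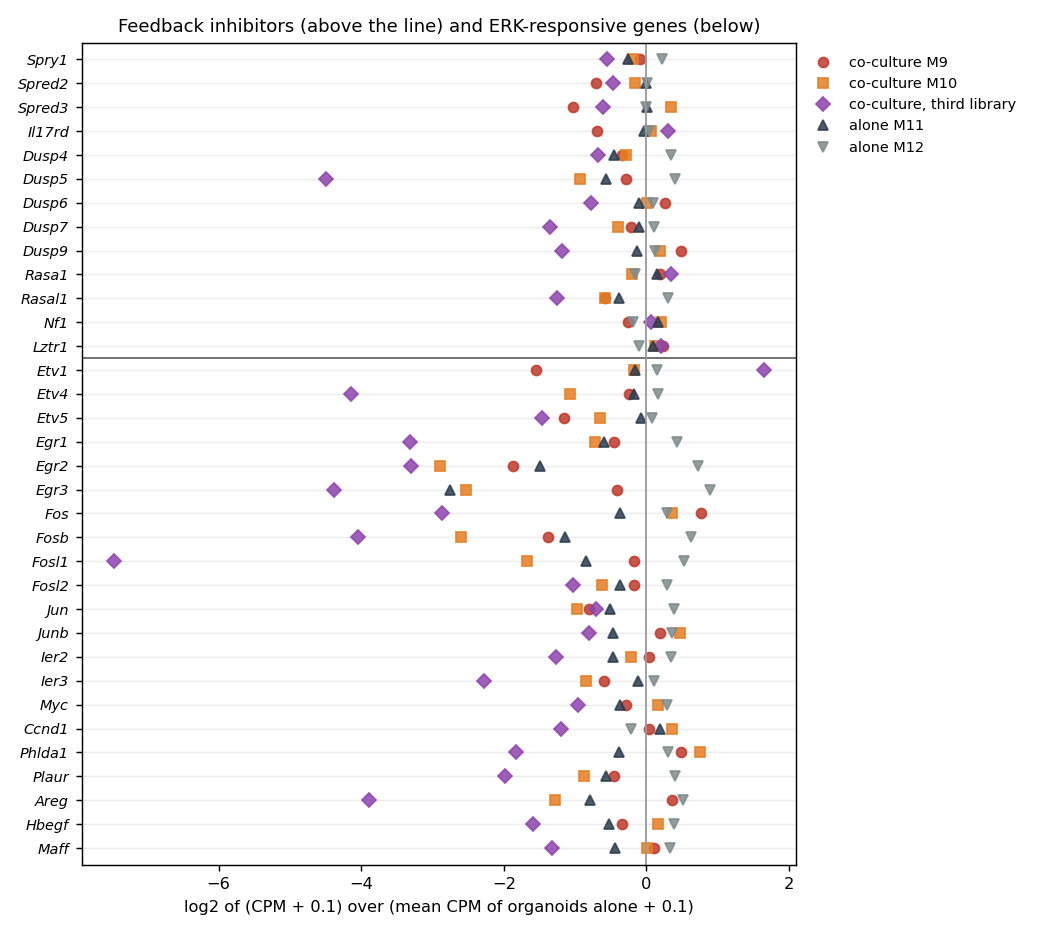
Feedback inhibitors (above the line) and ERK-responsive genes (below), 1 row per tested gene and 1 point per library; the horizontal axis is log2 of CPM plus 0.1 over the mean CPM of organoids alone plus 0.1. The purple points of the third co-culture library lie leftmost for 19 of the 21 ERK-responsive genes, beside 35% of all genes. For 6 of the 21, all 3 co-cultures lie left of both libraries alone, beside 16.9% of all genes.

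Over all 9 pathway lists, 3 of 108 genes tested were called, none higher and 3 lower. That is 2.78%, beside 2.24% of all genes, so the share called was near the background. A positive log2 difference was found for 33.3% of the 108, beside 50.1% of all genes. An unadjusted p under 0.05 by edgeR was found for 25.0%, beside 17.5%. In the third library 34.3% lay above the mean of M11 and M12, beside 47.4%. The number called was 1 without M11, 0 without M12, 20 without M9 and 14 without M10, and it was 13 with DESeq2. Of 4 more genes of the bile acid axis, listed apart from Fgfr4, Klb and the secreted FGFs, 1 was tested. This was Nr1h4, which encodes the bile acid receptor FXR. It was at 9.97, 7.76 and 15.5 CPM in M9, M10 and the third library, against 2.97 and 4.01 CPM in M11 and M12 (1.34 ± 0.35, SE, adjusted p = 0.128, edgeR). DESeq2 called it higher. Cyp7a1, the rate-limiting enzyme of bile acid synthesis, and Cyp8b1 had at most 1 count in any library. Nr0b2, a repressor that FXR induces, had 0 counts in all 3 co-cultures and 19 in M11 and M12 together, so that M9 and M10 were at least 7.94-fold lower per total count (floor of 3 counts over the group). These last 3 are named after their values were seen.

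In RefSeq (GRCm38.p6), Fgfr1 (ENSMUSG00000031565) is on chromosome 8, plus strand, between 25518759 and 25575718. Fgfr2 (ENSMUSG00000030849) lies on the minus strand of chromosome 7 from 130162451 to 130266808. Fgfr3 (ENSMUSG00000054252) occupies 33721724 to 33737068 of chromosome 5 (plus strand), which also carries Fgfrl1 (ENSMUSG00000008090) from 108694229 to 108706950. Fgfr4 (ENSMUSG00000005320) spans 55152818 to 55168759 on chromosome 13, plus strand. Fgf1 (ENSMUSG00000036585) and Spry4 (ENSMUSG00000024427) lie on the minus strand of chromosome 18, from 38838672 to 38929470 and from 38586247 to 38601347. Frs2 (ENSMUSG00000020170) is on chromosome 10, minus strand, between 117070127 and 117148474, and Spry2 (ENSMUSG00000022114) on chromosome 14, minus strand, between 105891947 and 105896819. Spred1 (ENSMUSG00000027351) is on chromosome 2, plus strand, between 117121071 and 117182279. All 10 are protein-coding genes, and each value counts a gene as a whole.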

How the data were processed

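Per the labels' protocols, a PicoPure kit gave total RNA, and libraries were prepared with a stranded kit after removal of ribosomal RNA. The submitters' processing notes list the builds mm10 and GRCh37 and, without roles, StringTie 2.1.3b, HISAT2 2.1.0, Bowtie2 2.3.4.1, FastQC 0.11.7 and Trimmomatic 0.38. Which tool counted reads, by which annotation and with which strand setting, is not given in the sources used here. For 4 libraries the authors deposited raw estimated counts for each Ensembl gene, as the headers name them; their length-normalized columns were not used. Repeated rows were reduced to 1 per gene, and estimated counts were rounded, 31.7% of 28691 genes with a count having one that was not whole. The third co-culture library was deposited by itself as raw read counts (whole numbers) by RefSeq gene. Symbols joined 30882 of its genes, with 97.8% of its counts. Columns M9 to M12 name a group but no sample.

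The 4 libraries were fitted by edgeR 4.0.16 under R 4.3.3 (low counts removed by filterByExpr, TMM, robust quasi-likelihood fit) with Benjamini-Hochberg adjustment over 15899 genes at 0.05; SE is the absolute log2 change over the square root of F. Alternatives were DESeq2 1.42.0, limma-voom (limma 3.58.1), other scalings, other filters, leaving out each library and a fit to all 5. The third library's log2 differences use a prior count of 2 and are against the mean of M11 and M12. The members and lists were chosen with earlier results of these data known. Genes named were the 10 members, up to 4 called genes of each list by smallest p or else the 2 most abundant, and the 5 genes most like Fgfr1. Libraries of a group differed by more than counting noise (chi-square per degree of freedom 93.1 for M9 and M10 and 33.3 for M11 and M12).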

Additional observations from a re-analysis of the deposited data

How the results depend on the processing

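No paired analysis was possible because the columns carry library numbers and not the replicate numbers of the titles. The number of genes called by edgeR, 356, was 1314 with DESeq2, 1404 without a low-count filter and 2 with all 5 libraries, and it ranged from 0 (without M12, 1438 at an unadjusted p under 0.05) to 2619 (without M9) with each library left out. The 3 pathway genes called became 13, 17 and 0 under the same 3 settings, and 0 to 20 with each library left out. The cause was not tested, except that left-out fits hold 1 library in an arm, which is assumed to vary like the other group. Other scalings, a stricter filter and limma-voom stayed within 1.5 times for both counts. Of the 10 members, 6 had a positive difference, and 4 to 6 in every alternative. Fgfr1, Fgfr2, Fgfr3, Fgfr4, Fgfrl1, Fgf1 and Spry2 kept their sign in all 11 alternatives, Frs2 in 9, Spry4 in 8 and Spred1 in 10. Taking the longest transcript, an alternative chosen after seeing the data, moved no receptor share by more than the spread between libraries. With 22 to 80 counts of Fgfr1 per co-culture library, counting error limits its fold.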

Other observations

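The intracellular FGF homologues, which are not secreted and do not signal through FGF receptors in the classical way, were detected at low level. Both genes that could be tested missed the threshold in edgeR (1 had an unadjusted p under 0.05, beside 17.5% of all genes). DESeq2 and limma-voom called 0. Fgf11 was at 2.94, 5.07 and 6.25 CPM in M9, M10 and the third co-culture library, against 1.39 and 1.99 CPM in M11 and M12 (log2 fold change 1.24 ± 0.47, SE; adjusted p = 0.255, edgeR). Fgf13 was at 12.2, 2.28 and 5.51 CPM, against 8.88 and 9.93 CPM (adjusted p = 0.847).

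Of 4 splicing regulators that are known to act on the choice between the epithelial and mesenchymal forms of Fgfr2, edgeR called 0. An unadjusted p under 0.05 by edgeR was reached by 1, beside 17.5% of all genes, and DESeq2 and limma-voom called 0. Rbfox2 was at 129, 150 and 143 CPM in the co-cultures and 103 and 98.2 CPM alone (adjusted p = 0.203, edgeR), and Ptbp1 at 442, 344 and 346 CPM, against 424 and 471 CPM (adjusted p = 0.658). Esrp1, the epithelial regulator, was at 94.9, 86.8 and 95.6 CPM, against 86.8 and 96.6 CPM (adjusted p = 0.965; named after its values were seen). Counts per gene do not show which form of Fgfr2 was made.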
